A study of Mus musculus with 16 samples.

Results

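The Wnt set comprised 47 genes: 10 Wnt ligands, 10 Frizzled receptors, 3 co-receptors, 8 secreted inhibitors, 3 genes of the R-spondin branch, 4 of the β-catenin destruction complex, 5 of the Dishevelled and Naked families and 4 TCF/LEF transcription factors. A gene belonged to it when the name in the array files, or the current symbol of the probe's transcript accession, was on the list, and the probe with the highest mean signal stood for it. All 47 had a probe that passed the filter on dim probes, among 24442 features tested, and 79 probes read them in all. Of the 47, 44 were well above background on all 16 arrays, while Wnt16 and Wif1 were so on 13 and Rspo3 on 14.

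Wnt ligands are secreted lipid-modified proteins that bind a Frizzled receptor together with Lrp5 or Lrp6, which through Dishevelled stops the Axin, Apc and Gsk3 complex from destroying β-catenin, so that β-catenin reaches TCF/LEF factors on DNA. Secreted inhibitors (Sfrp, Frzb, Dkk and Wif1) hold ligands or co-receptors back, whereas R-spondins keep receptors at the surface by neutralising ubiquitin ligases such as Rnf43. In the ovary the pathway, with Wnt4 and Rspo1 at its head, is known for keeping supporting cells on the granulosa rather than the Sertoli path, Sertoli cells being their testicular counterpart, and oocytes and the surface epithelium use it as well.

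RNA came from whole ovaries of mice 1 year old, labelled with the dye Cy3 and read on single-colour arrays, 4 per group. Control mice kept one allele of each estrogen receptor (ER), so that they are not labelled as wild type. Ex3aERKO mice lacked ERα, Ex3bERKO mice lacked ERβ and Ex3abERKO mice lacked both. The labels name no Cre driver or strain and leave it unsaid if a group's samples were separate animals or pools. The p-values here therefore measure a spread between samples that may not be the spread between animals. In whole-organ RNA, fewer cells of a type and less RNA per cell cannot be told apart. Each array's 75th percentile lay between 1211 and 1806 signal units with 80.4% to 87.6% of spots well above background, and arrays of a group correlated at r from 0.954 to 0.985. All 10 granulosa cell markers and all 7 measured oocyte markers were well above background on every array. Esr1, which encodes ERα, fell by 2.38 ± 0.38 (5.19-fold at an adjusted p = 0.00175) in Ex3aERKO, and Esr2, which encodes ERβ, differed by 0.43 ± 0.51 (adjusted p = 0.913) in Ex3bERKO. Which part of either gene was removed is not given in the sources used here, so these probes do not check the labels. Ex3aERKO 2 stood apart from all other arrays in liver markers, Ex3abERKO 2 in oviduct markers, and control 4 from the other control arrays in erythroid markers. The summed erythroid signal relative to the array's 75th percentile was 133 on control 4. It was at most 15.2 in the other control arrays and up to 99.4 in the knockouts. Results without these 3 arrays are given.

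RefSeq promoter windows (assembly GRCm38.p6) were matched for 32 of the 47 genes, in 41 windows, and the 250 bases before the transcription start were searched on both strands for the TCF/LEF motif CTTTGAT, the palindromic estrogen response element and the SOX motif ACAATGG. The TCF/LEF motif was in 2 of the 41 windows and in 3.21% of all 32851 windows of that length, the estrogen response element in 0 of 41 and 0.0639% of all, and the SOX motif in 0 of 41 and 3.02% of all. Of the 4 genes with a called interaction, described below, the windows of Wnt10b, Fzd1 and Nkd2 are shown and none of Dkk3. A window of Wnt11 is shown because it held a TCF/LEF match, on the strand opposite the gene, 51 to 45 bases before the start. The other match was in 1 of the 3 windows of Wnt5b. Sequences run 5′ to 3′ on the gene's strand, and capitals mark the match.
Wnt10b (chr15:98778151-98778400, minus strand): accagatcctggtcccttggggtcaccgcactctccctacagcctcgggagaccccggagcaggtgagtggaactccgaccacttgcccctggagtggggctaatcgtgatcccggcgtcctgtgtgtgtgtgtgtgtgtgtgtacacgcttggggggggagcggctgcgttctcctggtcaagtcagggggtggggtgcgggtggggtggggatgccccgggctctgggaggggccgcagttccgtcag
Fzd1 (chr5:4758217-4758466, minus strand): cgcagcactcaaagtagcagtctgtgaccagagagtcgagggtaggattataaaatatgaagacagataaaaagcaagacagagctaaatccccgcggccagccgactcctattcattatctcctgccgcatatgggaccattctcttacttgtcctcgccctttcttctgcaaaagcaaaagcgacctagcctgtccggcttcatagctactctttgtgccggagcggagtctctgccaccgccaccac
Nkd2 (chr13:73847632-73847881, minus strand): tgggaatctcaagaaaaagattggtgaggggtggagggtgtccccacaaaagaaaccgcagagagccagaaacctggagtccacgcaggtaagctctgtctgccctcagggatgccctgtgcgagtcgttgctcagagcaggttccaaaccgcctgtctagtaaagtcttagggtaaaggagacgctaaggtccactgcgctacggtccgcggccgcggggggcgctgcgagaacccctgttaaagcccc
Wnt11 (chr7:98834862-98835111, plus strand): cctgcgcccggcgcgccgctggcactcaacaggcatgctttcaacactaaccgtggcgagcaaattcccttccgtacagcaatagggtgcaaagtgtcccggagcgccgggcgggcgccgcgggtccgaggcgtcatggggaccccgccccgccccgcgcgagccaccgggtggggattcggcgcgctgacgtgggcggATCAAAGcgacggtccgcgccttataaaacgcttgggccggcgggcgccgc

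The comparisons ask how the ovarian Wnt genes differ when ERα, ERβ or both are missing. Levels are log2 signal relative to the array's 75th percentile and are read only within a probe. Differences are on the log2 scale, values after ± are standard errors of the limma fit with n = 4 per group, and a gene was called at a Benjamini-Hochberg adjusted p under 0.05 over all features. Against control, 3 genes rose and 3 fell in Ex3aERKO, against 8.02% of all features called, so that 12.8% of the set was called. Of all features 3.84% rose and 4.19% fell there. In Ex3bERKO 1 gene fell and 0 rose (2.13% of the set, 1.05% of all features). Of all features 0.397% rose and 0.655% fell. In Ex3abERKO 11 rose and 5 fell (34.0% of the set, 22.3% of all features), with a median difference of 0.31 over the set and -0.11 over all features, of which 10.7% rose and 11.7% fell.

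Ex3abERKO stood above Ex3aERKO in 7 genes and below it in 1 (17.0% of the set, 7.78% of all features), and above Ex3bERKO in 8 and below it in 4 (25.5%, 16.7% of all features). Of all features, 4.43% were higher and 3.35% lower than in Ex3aERKO, and 8.26% higher and 8.42% lower than in Ex3bERKO. Between the single knockouts, 1 gene was higher and 2 lower in Ex3aERKO than in Ex3bERKO (6.38%, 2.35% of all features, 0.655% higher and 1.7% lower). The interaction contrast, which asks whether ERβ loss did the same with and without ERα, (Ex3abERKO minus Ex3aERKO) minus (Ex3bERKO minus control), called 4 genes, all positive (8.51%, 3.6% of all features, 1.83% positive and 1.77% negative). In all, 25 genes were called in at least 1 of the 7 comparisons and 22 in none. The matching share of all features was not counted, so the 25 is not read as a trait of the set. Ex3abERKO against control alone called 22.3% of all features. The comparisons share groups, so their calls are not independent of each other. Of the 50 calls, 28 remained when any one of the 16 arrays was left out and 25 without the 3 arrays that stood apart. All 46 pairwise calls had the same sign on every slide that held both groups, but these signs come from the arrays that gave the calls. Where the arrays of the groups did not overlap, the sign was fixed in advance, so it is no test of a slide effect.

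Without the 3 arrays that stood apart, 25 calls were lost, those of Dkk3, Fzd9, Wnt2b and Wnt5b (Ex3aERKO against control), Dvl1, Frzb, Gsk3b, Rnf43, Tcf7l2, Wnt11 and Wnt9a (Ex3abERKO against control), Fzd10, Gsk3b, Nkd2, Sfrp1 and Wif1 (Ex3abERKO against Ex3aERKO), Dkk3, Gsk3b, Sfrp2 and Wnt5a (Ex3abERKO against Ex3bERKO), Frzb and Wnt2 (Ex3aERKO against Ex3bERKO) and Dkk3, Fzd1 and Nkd2 (the interaction). With a normexp background correction 24 were lost, those of Fzd9, Wnt2b and Wnt5b (Ex3aERKO against control), Dvl1, Frzb, Fzd9, Gsk3b, Lrp5, Tcf7l2, Wnt11, Wnt5a and Wnt9a (Ex3abERKO against control), Dkk2, Fzd10, Gsk3b, Sfrp1 and Wif1 (Ex3abERKO against Ex3aERKO), Dkk3, Fzd2, Fzd9, Gsk3b, Lrp5 and Wnt5a (Ex3abERKO against Ex3bERKO) and Wnt2 (Ex3aERKO against Ex3bERKO).

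Groups were spread unevenly over the 4 slides, with no Ex3bERKO array on slide 2 and no Ex3abERKO array on slide 3, and the model has no term for slide. Arrays of different groups on the same slide deviated from their group means together, at a median correlation over features of 0.28 (from -0.03 to 0.43, 22 pairs that share arrays). With slide as a fixed block 9 of the 50 calls were lost, those of Lrp5, Tcf7l2 and Wnt11 (Ex3abERKO against control), Fzd2, Gsk3b, Lrp5 and Wnt5a (Ex3abERKO against Ex3bERKO), Wnt2 (Ex3aERKO against Ex3bERKO) and Nkd2 (the interaction), and with slide as a random block 0 were.

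**Figure D1:**
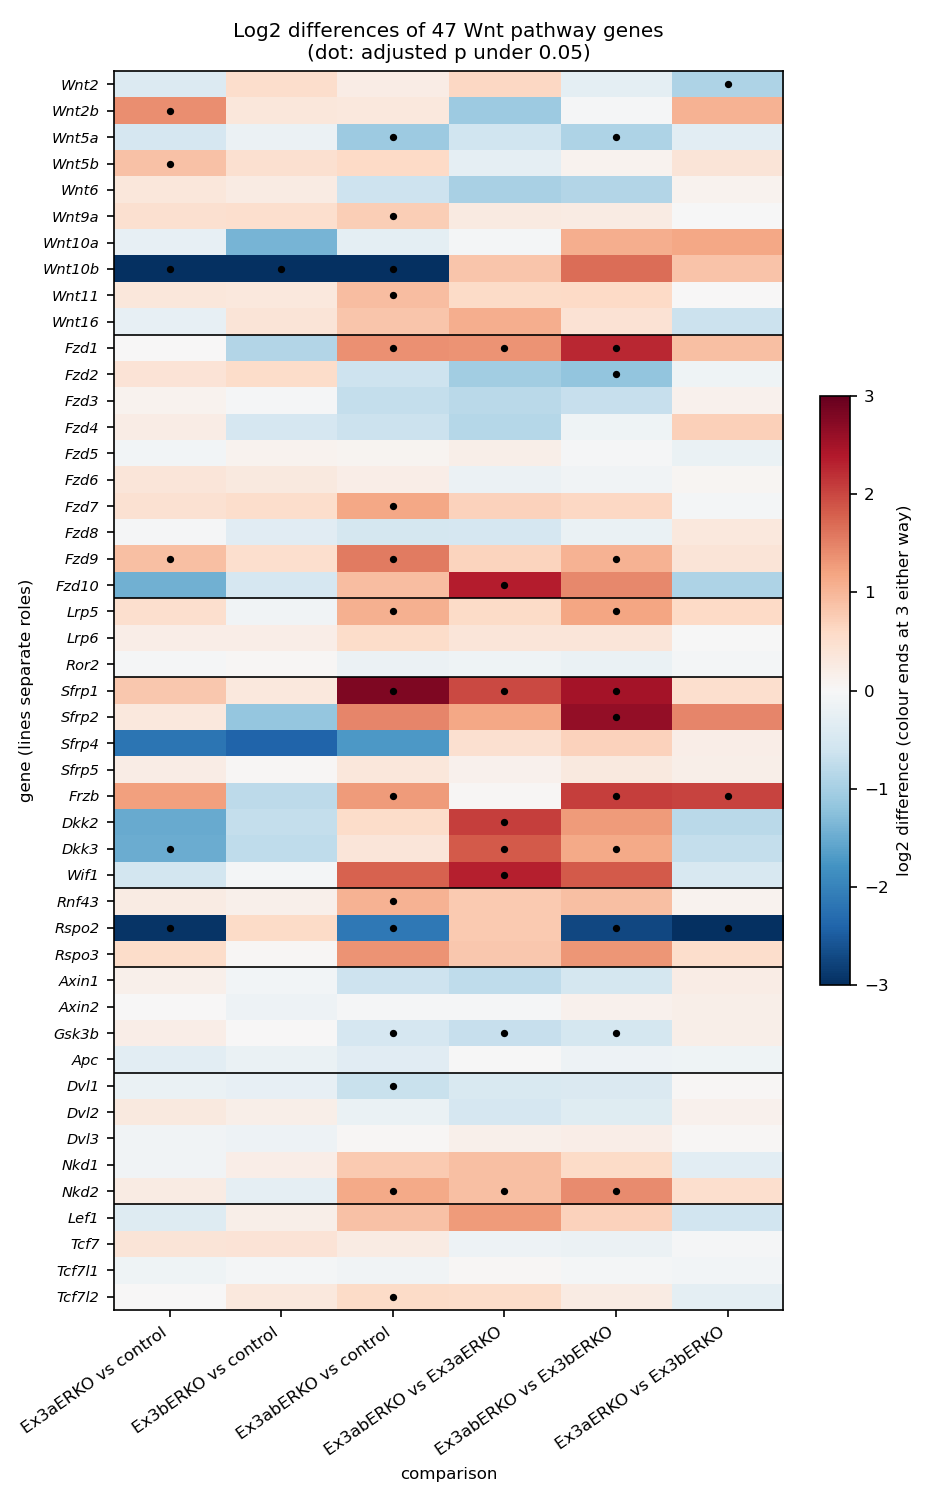
Log2 differences of the 47 Wnt pathway genes (rows, in blocks by role) in the 6 pairwise comparisons (columns); red is higher in the first group named, blue lower, the colour ends at 3 either way, and a dot marks a call at an adjusted p under 0.05. Wnt10b is the one gene dotted in all 3 comparisons with control, and the Ex3abERKO columns hold most of the dots.

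Of the 10 ligands, 2 rose and 1 fell in Ex3aERKO, 1 fell in Ex3bERKO, and 2 rose and 2 fell in Ex3abERKO. Over all features, 3.84% rose and 4.19% fell in Ex3aERKO, 0.655% fell in Ex3bERKO, and 10.7% rose and 11.7% fell in Ex3abERKO. Wnt10b, a ligand that signals through β-catenin and is best known for holding back fat cell formation, lost most of its signal in all 3 knockouts. Wnt10b (probe at chr15:98757734-98757793, array build mm7, minus strand) stood across replicates 1 to 4 at 0.55, 0.22, 0.14, -0.45 (control) and -2.61, -3.20, -4.49, -5.58 (Ex3aERKO). Wnt10b read -4.38, -3.62, -5.53, -5.73 (Ex3bERKO) and -2.25, -3.85, -2.86, -3.61 (Ex3abERKO). Every knockout array was below every control array, and the 3 knockout groups overlapped each other. It fell by 4.08 ± 0.61 (17.0-fold at an adjusted p = 0.00116) in Ex3aERKO, by 4.93 ± 0.61 (30.5-fold at an adjusted p = 0.00139) in Ex3bERKO and by 3.26 ± 0.61 (9.58-fold at an adjusted p = 0.00170) in Ex3abERKO. Within slides the difference in Ex3aERKO was -5.72 to -2.82, and all of its calls remained without any one array or the 3 arrays that stood apart.

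The interaction for Wnt10b was 5.76 ± 0.86 (adjusted p = 0.00262). Adding both single losses would put the Ex3abERKO mean at -8.90, at the floor of -8.88 set on low signals, and the measured mean was -3.15. Ex3abERKO differed from Ex3aERKO by 0.82 ± 0.61 (95% interval -0.47 to 2.12, adjusted p = 0.484) and from Ex3bERKO by 1.67 ± 0.61 (95% interval 0.37 to 2.97, adjusted p = 0.0741), neither of which passed.

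Wnt5a, the main ligand of β-catenin-independent signalling, stood at -4.12, -3.89, -3.61, -3.62 (control) and -4.40, -4.34, -4.48, -4.01 (Ex3aERKO). Wnt5a read -3.19, -3.90, -4.52, -4.34 (Ex3bERKO) and -4.60, -4.43, -5.57, -5.03 (Ex3abERKO). All Ex3abERKO arrays were below all control arrays. It fell by 1.10 ± 0.29 (2.14-fold at an adjusted p = 0.0135) against control, and the differences in the single knockouts were -0.50 ± 0.29 (adjusted p = 0.368) and -0.18 ± 0.29 (adjusted p = 0.955). With a normexp background correction the difference from control was -1.02 and did not pass (adjusted p = 0.0967). Against Ex3bERKO it differed by -0.92 ± 0.29 (1.89-fold at an adjusted p = 0.0417) with overlapping arrays, a call lost without control 2, 3 or 4, Ex3aERKO 1, 2 or 3, Ex3bERKO 1, 2 or 4, or Ex3abERKO 3 or 4 (adjusted p from 0.0511 to 0.123), and with slide as a fixed block (adjusted p = 0.0840).

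Wnt9a, a β-catenin ligand, stood at -1.41, -1.67, -1.93, -1.91 (control) and -1.14, -1.24, -1.14, -1.47 (Ex3aERKO). Wnt9a read -1.16, -1.26, -1.16, -1.34 (Ex3bERKO) and -1.15, -0.78, -0.83, -1.19 (Ex3abERKO). It rose by 0.75 ± 0.15 (1.68-fold at an adjusted p = 0.00337) in Ex3abERKO, whose arrays were all above control, but the second probe of Wnt9a, well above background on all 16 arrays, differed by -0.01 (adjusted p = 0.977), and the call was lost without the 3 arrays that stood apart (adjusted p = 0.0531). Wnt11, a ligand of the β-catenin-independent branch whose promoter window is printed above, stood at -2.52, -2.57, -2.66, -2.89 (control) and -2.23, -2.18, -2.04, -2.84 (Ex3aERKO). Wnt11 read -2.17, -2.59, -2.25, -2.35 (Ex3bERKO) and -1.86, -0.68, -2.29, -2.14 (Ex3abERKO). Its rise of 0.91 ± 0.29 (1.89-fold at an adjusted p = 0.0347) in Ex3abERKO was lost without control 1, 2, 3 or 4, or Ex3abERKO 2 (adjusted p from 0.0572 to 0.0842). Without Ex3abERKO 2, the array highest in oviduct markers, the difference was 0.56, and with slide as a fixed block the call was lost (adjusted p = 0.0559).

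Wnt2b and Wnt5b, a pair of ligands of the β-catenin-dependent and independent branches, rose in the ovary without ERα. Wnt2b stood at -4.87, -4.44, -4.92, -5.42 (control) and -3.46, -2.92, -3.50, -4.21 (Ex3aERKO). Wnt2b read -4.54, -4.23, -4.07, -5.42 (Ex3bERKO) and -5.11, -4.67, -4.0, -4.64 (Ex3abERKO). Its arrays in Ex3aERKO were all above control, the rise was 1.39 ± 0.34 (2.62-fold at an adjusted p = 0.0205), and the call was lost without control 3 or 4, or Ex3aERKO 2 or 3 (adjusted p from 0.0534 to 0.0741) and without the 3 arrays that stood apart, where the difference was 1.02. With the normexp correction the difference of Wnt2b was 0.10 (adjusted p = 0.899).

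Wnt5b stood at -0.86, -0.70, -0.55, -0.84 (control) and 0.29, -0.08, 0.27, 0.04 (Ex3aERKO). Wnt5b read -0.48, -0.14, -0.01, -0.41 (Ex3bERKO) and 0.24, 0.15, -0.81, -0.16 (Ex3abERKO). The Ex3aERKO arrays were all above control, and the rise was 0.87 ± 0.21 (1.82-fold at an adjusted p = 0.0193), lost without control 1 or 4, or Ex3aERKO 1 or 3 (adjusted p from 0.0528 to 0.0621). Its second probe differed by 0.73 (adjusted p = 0.203). Wnt2, a ligand of the β-catenin branch, stood at -2.49, -3.02, -3.40, -3.18 (control) and -3.47, -3.49, -3.07, -3.67 (Ex3aERKO). Wnt2 read -2.08, -2.82, -2.40, -2.70 (Ex3bERKO) and -2.87, -2.74, -2.62, -2.95 (Ex3abERKO). Ex3aERKO differed from Ex3bERKO by -0.93 ± 0.21 (1.90-fold at an adjusted p = 0.0337) with no overlap, and the call was lost without Ex3aERKO 1, 2 or 4, or Ex3bERKO 1, 3 or 4 (adjusted p from 0.0642 to 0.120) and under 6 of the other alternatives, slide as a fixed block among them (adjusted p = 0.0661).

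The 3 other ligands, Wnt6, Wnt10a and Wnt16, passed in no comparison, although by its second probe Wnt6 differed between Ex3abERKO and Ex3aERKO by -1.07 (adjusted p = 0.0487). Wnt16 ranged from -7.08 to -4.78 on 15 arrays and stood at -1.98 on Ex3abERKO 2. Wnt10a differed most in Ex3bERKO, by -1.40 ± 0.51 (95% interval -2.49 to -0.31, adjusted p = 0.309), where 2 arrays at -1.87 and -3.25 lay below all control arrays and 2 at -0.44 and -0.19 among them.

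Of the 10 Frizzled receptors, 1 rose in Ex3aERKO, 0 were called in Ex3bERKO and 3 rose in Ex3abERKO. Over all features, 3.84% rose in Ex3aERKO and 10.7% in Ex3abERKO. Fzd1, a seven-pass Wnt receptor, was highest in the ovary lacking both ERs. Fzd1 (probe at chr5:4760009-4760068, minus strand) stood at 2.34, 1.88, 1.79, 2.42 (control) and 2.03, 2.48, 2.45, 1.54 (Ex3aERKO). Fzd1 read 1.15, 2.03, 0.96, 0.76 (Ex3bERKO) and 3.75, 3.38, 3.88, 2.91 (Ex3abERKO). All 4 Ex3abERKO arrays were above all 12 others. Fzd1 rose by 1.37 ± 0.30 (2.59-fold at an adjusted p = 0.00526) in Ex3abERKO against control, differed from Ex3aERKO by 1.36 ± 0.30 (adjusted p = 0.0149) and from Ex3bERKO by 2.25 ± 0.30 (adjusted p = 0.000488).

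In the single knockouts Fzd1 differed from control by 0.02 ± 0.30 (95% interval -0.63 to 0.67, adjusted p = 0.989) in Ex3aERKO and -0.88 ± 0.30 (95% interval -1.53 to -0.23, adjusted p = 0.268) in Ex3bERKO. Adding these would give 1.24 in Ex3abERKO, where 3.48 was measured, and the interaction was 2.24 ± 0.43 (adjusted p = 0.0117). Each of these calls remained without any one array. Without the 3 arrays that stood apart the interaction was 2.28 (adjusted p = 0.0571), and with only the 2 groups compared in the fit the difference from Ex3aERKO did not pass (adjusted p = 0.0527).

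**Figure D2:**
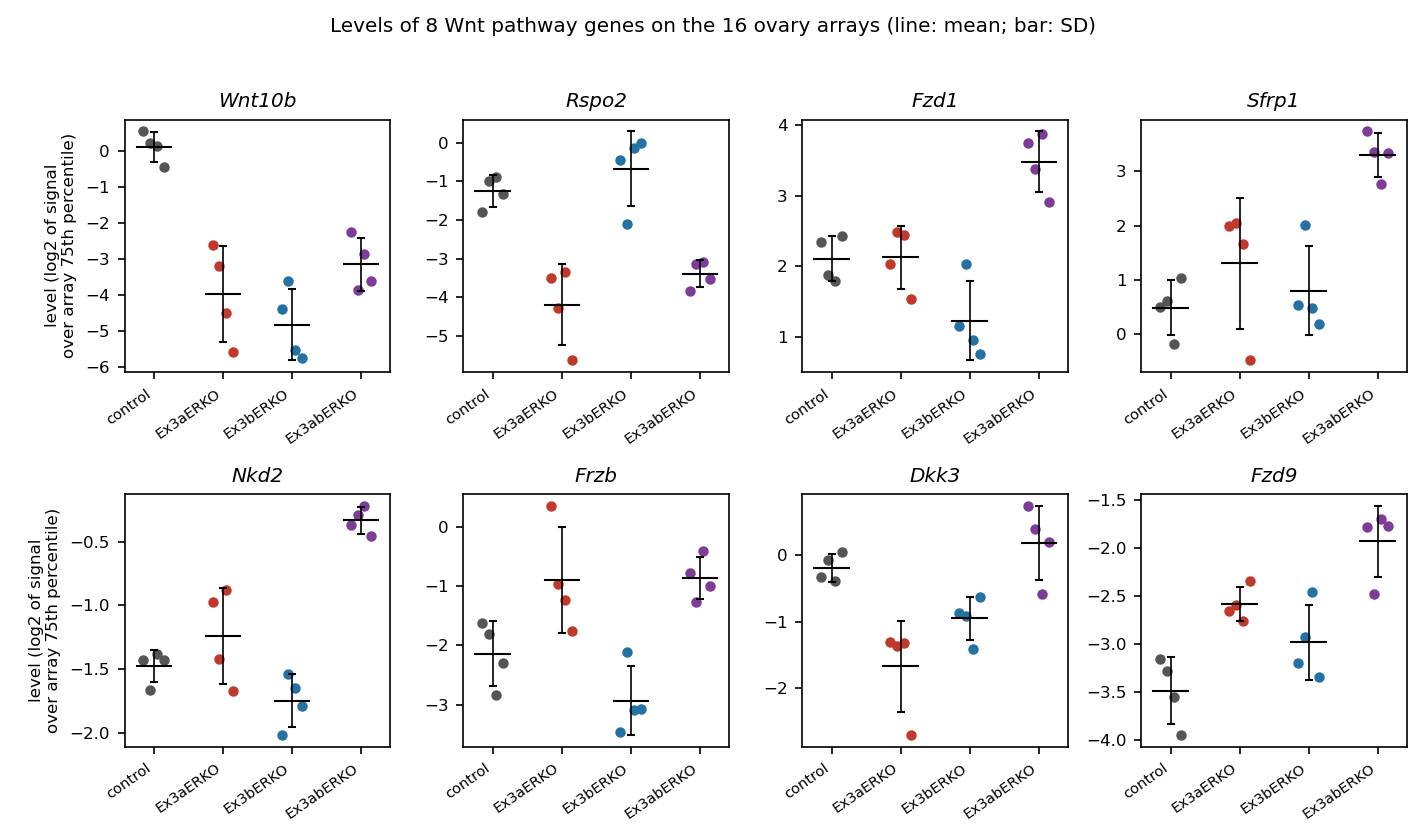
Levels of 8 Wnt pathway genes, each point 1 array (log2 of signal over the array's 75th percentile; vertical axes differ between genes), by group, with the group mean as a line and the SD as a bar, n = 4. Wnt10b lies low in all 3 knockouts, Rspo2 in Ex3aERKO and Ex3abERKO, and Fzd1, Sfrp1 and Nkd2 lie above all other arrays in Ex3abERKO.

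Fzd9, a Frizzled receptor known mainly from brain and bone, stood at -3.16, -3.28, -3.55, -3.95 (control) and -2.65, -2.59, -2.76, -2.34 (Ex3aERKO). Fzd9 read -3.20, -2.92, -2.45, -3.35 (Ex3bERKO) and -1.77, -2.48, -1.69, -1.76 (Ex3abERKO). Its Ex3aERKO and Ex3abERKO arrays were all above control. It rose by 1.56 ± 0.24 (2.94-fold at an adjusted p = 0.000448) in Ex3abERKO and by 0.90 ± 0.24 (1.87-fold at an adjusted p = 0.0297) in Ex3aERKO, and Ex3abERKO exceeded Ex3bERKO by 1.05 ± 0.24 (2.07-fold at an adjusted p = 0.00825), with 1 overlapping pair of arrays. The Ex3aERKO call was lost without control 3 or 4, or Ex3aERKO 1, 2, 3 or 4 (adjusted p from 0.0530 to 0.0956) and without the 3 arrays that stood apart (adjusted p = 0.138). With the normexp correction the rise in Ex3abERKO was 0.82 (adjusted p = 0.175), and neither other call of Fzd9 passed.

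Fzd7, a receptor of β-catenin signalling in many stem and epithelial cells, stood at -1.40, -0.76, -0.89, -0.82 (control) and -0.27, -0.28, -0.31, -1.13 (Ex3aERKO). Fzd7 read -0.02, -0.71, -0.66, -0.35 (Ex3bERKO) and 0.23, 0.12, 0.41, 0.02 (Ex3abERKO). It rose by 1.16 ± 0.23 (2.23-fold at an adjusted p = 0.00226) in Ex3abERKO, whose arrays were all above all 12 others, while its second probe, well above background on all 16 arrays, differed by -0.42 (adjusted p = 0.429). Fzd2, a receptor for Wnt5a among others, stood at 0.18, 0.26, -0.56, -0.52 (control) and 0.07, -0.05, 0.26, 0.76 (Ex3aERKO). Fzd2 read 0.43, 0.53, 0.28, 0.34 (Ex3bERKO) and -0.13, -0.26, -2.00, -0.73 (Ex3abERKO). Ex3abERKO differed from Ex3bERKO by -1.18 ± 0.35 (2.26-fold at an adjusted p = 0.0314) with no overlap, a call lost without Ex3bERKO 1, 2, 3 or 4, or Ex3abERKO 4 (adjusted p from 0.0575 to 0.0684) and with slide as a fixed block (adjusted p = 0.0753), and its second probe differed by -0.69 (adjusted p = 0.416).

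Fzd10, another Frizzled receptor, stood at -3.58, -3.33, -3.88, -3.59 (control) and -4.74, -5.56, -3.70, -6.14 (Ex3aERKO). Fzd10 read -3.74, -3.84, -5.09, -3.77 (Ex3bERKO) and -3.79, -0.71, -2.73, -3.45 (Ex3abERKO). Ex3abERKO exceeded Ex3aERKO by 2.36 ± 0.61 (5.15-fold at an adjusted p = 0.0292) with overlapping arrays. The call was lost without Ex3aERKO 1, 2 or 4, or Ex3abERKO 2 (adjusted p from 0.0564 to 0.0963), and its second probe differed by 0.32 (adjusted p = 0.750). The level of -0.71 was on Ex3abERKO 2, whose summed oviduct markers were 52.0 against at most 4.04 on the other 15 arrays, and the part of these in the Fzd10 and Wnt11 levels was not tested. The 5 receptors Fzd3, Fzd4, Fzd5, Fzd6 and Fzd8 passed in no comparison, with pairwise differences from -0.85 to 0.72. A second probe of Fzd3 and of Fzd8 fell in Ex3abERKO, by 0.64 (adjusted p = 0.0237) and 0.86 (adjusted p = 0.0317). The remaining probe of Fzd3 differed by -0.30 and did not pass (adjusted p = 0.357).

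Among the 3 co-receptors, Lrp5, which binds Wnt beside Frizzled, stood at -1.94, -2.57, -2.26, -0.77 (control) and -0.69, -1.98, -1.27, -1.63 (Ex3aERKO). Lrp5 read -1.93, -2.16, -1.81, -2.07 (Ex3bERKO) and -0.13, -0.90, -1.14, -1.06 (Ex3abERKO). It rose by 1.08 ± 0.36 (2.11-fold at an adjusted p = 0.0444) in Ex3abERKO with overlapping arrays and exceeded Ex3bERKO by 1.18 ± 0.36 (2.27-fold at an adjusted p = 0.0370) with none. The first call was lost without control 1, 2 or 3, Ex3aERKO 3, Ex3bERKO 1, 2, 3 or 4, or Ex3abERKO 1, 2 or 4 (adjusted p from 0.0530 to 0.133), the second without Ex3bERKO 1, 2, 3 or 4, or Ex3abERKO 1, 2 or 4 (adjusted p from 0.0522 to 0.100), and with slide as a fixed block they stood at adjusted p = 0.0638 and 0.153. Lrp6, the partner of Lrp5, and Ror2, a Wnt5a receptor kinase, passed in none, with pairwise differences from -0.01 to 0.55 and from -0.20 to 0.04.

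Of the 8 secreted inhibitors, 1 fell in Ex3aERKO, 0 were called in Ex3bERKO and 2 rose in Ex3abERKO. Ex3abERKO exceeded Ex3aERKO in 4 (Sfrp1, Dkk2, Dkk3 and Wif1) and Ex3bERKO in 4 (Sfrp1, Sfrp2, Frzb and Dkk3). Over all features, 4.19% fell in Ex3aERKO and 10.7% rose in Ex3abERKO against control. Ex3abERKO exceeded Ex3aERKO in 4.43% of all features and Ex3bERKO in 8.26%. Sfrp1, a secreted decoy that binds Wnt ligands, showed the largest rise of any set member in Ex3abERKO against control. Sfrp1 (probe at chr8:22232957-22233016, plus strand) stood at 0.50, 0.62, -0.18, 1.03 (control) and 2.00, 2.05, 1.67, -0.48 (Ex3aERKO). Sfrp1 read 0.54, 2.00, 0.49, 0.19 (Ex3bERKO) and 3.74, 3.36, 2.76, 3.34 (Ex3abERKO). All Ex3abERKO arrays were above all 12 others, and Ex3aERKO 4 was the lowest of its group and of all arrays. Sfrp1 rose by 2.81 ± 0.52 (7.0-fold at an adjusted p = 0.00164) against control, with rises from 2.27 to 3.52 within the 3 slides that held both groups, and its second probe by 2.30 (adjusted p = 0.00197).

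Ex3abERKO exceeded Ex3bERKO in Sfrp1 by 2.49 ± 0.52 (5.63-fold at an adjusted p = 0.00549) and Ex3aERKO by 1.99 ± 0.52 (3.97-fold at an adjusted p = 0.0309), the latter lost without Ex3aERKO 4, or Ex3abERKO 1, 2 or 4 (adjusted p from 0.0639 to 0.0728) and without the 3 arrays that stood apart (adjusted p = 0.0744). The single knockouts differed from control by 0.82 ± 0.52 (95% interval -0.29 to 1.93, adjusted p = 0.430) in Ex3aERKO and 0.31 ± 0.52 (95% interval -0.80 to 1.43, adjusted p = 0.957) in Ex3bERKO.

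Frzb, a Wnt-binding relative of Sfrp1 also named Sfrp3, stood at -1.62, -1.81, -2.84, -2.29 (control) and 0.35, -0.96, -1.23, -1.76 (Ex3aERKO). Frzb read -3.45, -2.10, -3.09, -3.08 (Ex3bERKO) and -0.78, -1.26, -0.41, -1.0 (Ex3abERKO). All Ex3aERKO and Ex3abERKO arrays were above all Ex3bERKO arrays: Ex3abERKO exceeded Ex3bERKO by 2.07 ± 0.41 (4.19-fold at an adjusted p = 0.00426) and Ex3aERKO did so by 2.03 ± 0.41 (4.09-fold at an adjusted p = 0.0165). Against control it rose by 1.28 ± 0.41 (2.42-fold at an adjusted p = 0.0386) in Ex3abERKO, lost without control 2, 3 or 4, or Ex3abERKO 1, 3 or 4 (adjusted p from 0.0502 to 0.123), and differed by 1.24 ± 0.41 (adjusted p = 0.0838) in Ex3aERKO and -0.79 ± 0.41 (adjusted p = 0.590) in Ex3bERKO. The call between the single knockouts was lost without Ex3bERKO 1 or 4 (adjusted p from 0.0626 to 0.0661) and without the 3 arrays that stood apart (adjusted p = 0.0875).

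Dkk3, a divergent Dickkopf protein, fell in the ovary without ERα and was not called in the one without both. Dkk3 (probe at chr7:108032840-108032899, minus strand) stood at -0.34, -0.07, -0.40, 0.04 (control) and -1.30, -1.36, -1.32, -2.70 (Ex3aERKO). Dkk3 read -0.87, -0.91, -1.41, -0.63 (Ex3bERKO) and 0.72, 0.38, -0.59, 0.20 (Ex3abERKO). All Ex3aERKO arrays and all Ex3bERKO arrays were below all control arrays, whereas Ex3abERKO overlapped control. It fell by 1.48 ± 0.32 (2.79-fold at an adjusted p = 0.0118) in Ex3aERKO, differed by -0.76 ± 0.32 (95% interval -1.45 to -0.07, adjusted p = 0.437) in Ex3bERKO and by 0.37 ± 0.32 (95% interval -0.32 to 1.06, adjusted p = 0.475) in Ex3abERKO.

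Ex3abERKO exceeded Ex3aERKO in Dkk3 by 1.85 ± 0.32 (3.6-fold at an adjusted p = 0.00434), and the interaction was 2.61 ± 0.46 (adjusted p = 0.00694), with -2.43 given by adding the single differences and 0.18 measured. These calls remained without any one array. Without the 3 arrays that stood apart the difference in Ex3aERKO was -1.50 (adjusted p = 0.0831) and the interaction 2.57 (adjusted p = 0.0522). The excess over Ex3bERKO was 1.13 ± 0.32 (2.19-fold at an adjusted p = 0.0283), lost without Ex3bERKO 1 or 3, or Ex3abERKO 1, 2 or 4 (adjusted p from 0.0554 to 0.0863).

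Dkk2, a Dickkopf that binds Lrp co-receptors, stood at -3.42, -3.91, -4.01, -3.81 (control) and -6.73, -3.63, -5.82, -5.06 (Ex3aERKO). Dkk2 read -3.51, -4.35, -5.75, -4.40 (Ex3bERKO) and -3.72, -3.18, -2.59, -3.46 (Ex3abERKO). Ex3abERKO exceeded Ex3aERKO by 2.07 ± 0.56 (4.21-fold at an adjusted p = 0.0342) with overlapping arrays, lost without Ex3aERKO 1, 3 or 4, or Ex3abERKO 2, 3 or 4 (adjusted p from 0.0605 to 0.0973). Sfrp2, a further Wnt decoy, stood at -1.29, -1.59, -3.35, -2.35 (control) and -2.10, -0.83, -1.45, -2.93 (Ex3aERKO). Sfrp2 read -2.61, -1.80, -5.05, -3.73 (Ex3bERKO) and 0.41, -0.56, -0.58, -1.95 (Ex3abERKO). Ex3abERKO exceeded Ex3bERKO by 2.63 ± 0.70 (6.18-fold at an adjusted p = 0.0192) with overlapping arrays, lost without Ex3bERKO 3 or 4, or Ex3abERKO 1 (adjusted p from 0.0537 to 0.0597).

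Wif1, which binds Wnt ligands outside the cell, stood at -5.17, -6.33, -4.87, -6.54 (control) and -8.10, -5.62, -6.42, -4.95 (Ex3aERKO). Wif1 read -5.36, -5.47, -4.99, -7.32 (Ex3bERKO) and -4.21, -4.76, -3.34, -3.50 (Ex3abERKO), and 3 of 4 arrays in each group but Ex3abERKO were well above background. Ex3abERKO exceeded Ex3aERKO by 2.32 ± 0.66 (5.0-fold at an adjusted p = 0.0430) with no overlap, lost without control 1 or 2, Ex3aERKO 1 or 3, Ex3bERKO 1 or 2, or Ex3abERKO 1, 3 or 4 (adjusted p from 0.0523 to 0.116). With the normexp correction the difference was 1.02. Sfrp4, a decoy known from ovulating and luteal follicles, ranged from 5.07 to 6.74 (control), 2.00 to 5.44 (Ex3aERKO), 1.33 to 6.07 (Ex3bERKO) and 3.19 to 5.05 (Ex3abERKO), the last without overlap with control. The summed signal of 6 luteal markers moved with it, at 34.5 to 203 (control), 11.6 to 28.5 (Ex3aERKO), 15.3 to 119.6 (Ex3bERKO) and 12.7 to 29.9 (Ex3abERKO), with 2 of the 6 lower in Ex3aERKO, 0 in Ex3bERKO and 3 in Ex3abERKO. Control 1 and Ex3bERKO 2, the arrays highest in Sfrp4, were also the highest in these markers at 203 and 119.6, and their part in the Sfrp4 levels was not tested. Its differences from control were -2.19 ± 0.98 (95% interval -4.28 to -0.11, adjusted p = 0.210), -2.40 ± 0.98 (95% interval -4.49 to -0.31, adjusted p = 0.398) and -1.72 ± 0.98 (95% interval -3.80 to 0.37, adjusted p = 0.239) in that order, so that the intervals include falls of several fold although none passed. Sfrp5, another decoy, passed in no comparison either.

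Rspo2, an R-spondin that raises Wnt receptor levels and is known to be made by oocytes, fell in both groups that lack ERα and was not called in the one that lacks ERβ alone. Rspo2 (probe at chr15:43029149-43029208, minus strand) stood at -1.80, -0.98, -0.88, -1.33 (control) and -3.49, -4.28, -3.34, -5.63 (Ex3aERKO). Rspo2 read -0.45, -2.09, -0.13, 0.01 (Ex3bERKO) and -3.83, -3.14, -3.07, -3.52 (Ex3abERKO). The Ex3aERKO and Ex3abERKO arrays were all below all control and all Ex3bERKO arrays, and control overlapped Ex3bERKO. It fell by 2.94 ± 0.50 (7.68-fold at an adjusted p = 0.00262) in Ex3aERKO, with differences from -4.75 to -2.01 within the 4 slides that held both groups, and by 2.15 ± 0.50 (4.43-fold at an adjusted p = 0.00709) in Ex3abERKO, and differed by 0.58 ± 0.50 (95% interval -0.49 to 1.65, adjusted p = 0.840) in Ex3bERKO. Ex3aERKO differed from Ex3bERKO by -3.52 ± 0.50 (11.5-fold at an adjusted p = 0.00185), and Ex3abERKO did so by -2.73 ± 0.50 (6.62-fold at an adjusted p = 0.00267), while Ex3abERKO differed from Ex3aERKO by 0.79 ± 0.50 (95% interval -0.28 to 1.87, adjusted p = 0.398). All of these calls remained without any one array and without the 3 arrays that stood apart. The call between the single knockouts did not pass with only those groups in the fit (adjusted p = 0.0613).

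Oocyte markers moved with Rspo2. The summed signal of the 7 measured markers, each relative to the array's 75th percentile, was 12.4 to 27.8 (control), 0.994 to 4.81 (Ex3aERKO), 13.0 to 46.4 (Ex3bERKO) and 3.77 to 6.17 (Ex3abERKO). Of the 7, 6 fell in Ex3aERKO, 5 in Ex3abERKO and 0 in Ex3bERKO. Zp3, a protein of the egg coat, fell by 3.13 ± 0.46 (8.75-fold at an adjusted p = 0.00108) in Ex3aERKO and Gdf9, an oocyte growth factor, by 2.96 ± 0.50 (7.78-fold at an adjusted p = 0.00254). The array lowest in Rspo2, Ex3aERKO 4, was also the lowest in summed oocyte markers, and in Ex3bERKO the array at -2.09 was the lowest of its group in both. The part of oocyte content in the Rspo2 difference was not tested.

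**Figure D3:**
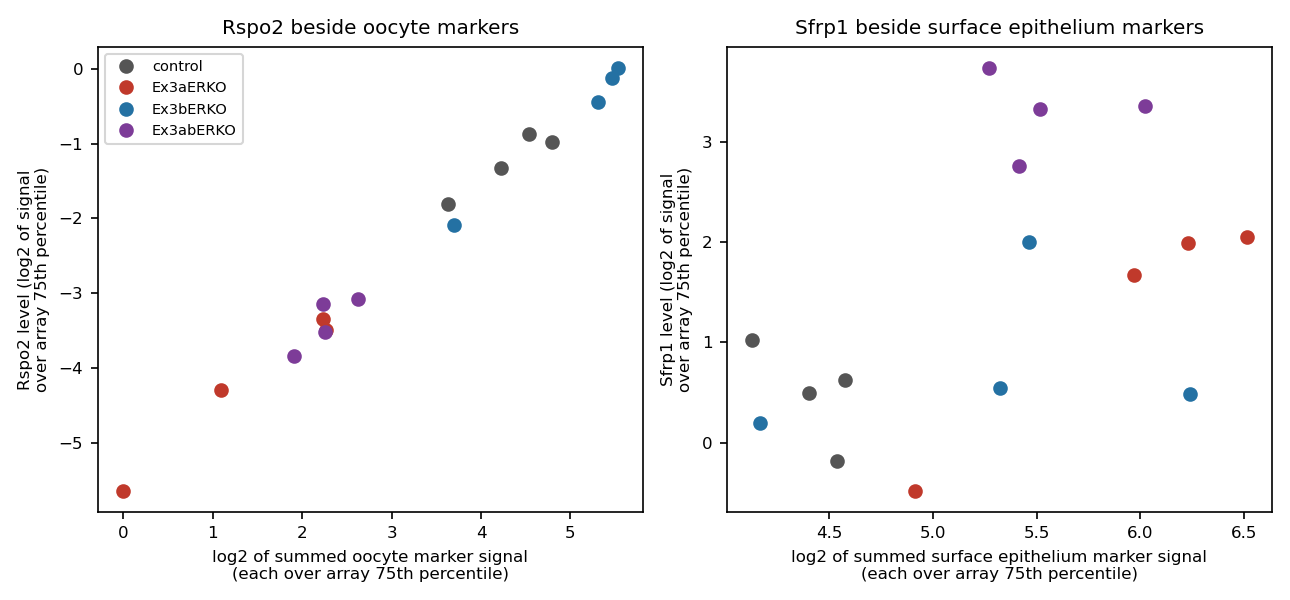
Left, the level of Rspo2 against the log2 summed signal of 7 oocyte markers; right, the level of Sfrp1 against that of 10 surface epithelium markers; each point is 1 of 16 arrays, coloured by group, and both axes are relative to the array's 75th percentile. Rspo2 and the oocyte markers are lowest together on Ex3aERKO 4, where Rspo2 is at -5.63. The 4 Ex3abERKO arrays are the highest in Sfrp1, and Ex3aERKO 2 is the highest in surface epithelium markers. The part of either cell type in these levels was not tested.

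Markers of several other cell types also differed between the groups. The summed signal of 10 surface epithelium markers was 17.4 to 23.8 (control), 30.2 to 91.5 (Ex3aERKO), 18.0 to 75.6 (Ex3bERKO) and 38.6 to 65.1 (Ex3abERKO), with 6 markers higher in Ex3aERKO and 4 in Ex3abERKO. Ex3aERKO 4, lowest in Sfrp1, was lowest of its group in these at 30.2. For 9 stroma markers the sums were 138 to 195 in control and 232 to 444 in Ex3abERKO, with 4 higher and 1 lower. The single knockouts overlapped both, at 117 to 250.5 in Ex3aERKO (1 higher, 2 lower) and 170 to 288.5 in Ex3bERKO (0 called). Ex3aERKO 4 was the lowest of all arrays in stroma markers as well, at 117. All 7 macrophage markers rose in Ex3abERKO. For 10 granulosa cell markers the sums were 143 to 250.5 in control, 175 to 399.9 in Ex3aERKO and 139 to 219 in Ex3bERKO. In Ex3abERKO they were 63.8 to 126, where 1 was higher and 4 lower. Sums of 9 Sertoli cell markers were 2.01 to 2.42 in control against 38.0 to 61.1, 3.38 to 32.3 and 18.3 to 52.6 in Ex3aERKO, Ex3bERKO and Ex3abERKO. Of these 9 markers, 5 were higher in Ex3aERKO, 2 in Ex3bERKO and 8 in Ex3abERKO, where 1 was lower. For 6 theca and steroidogenic markers the control sums of 297 to 429 stood against 77.0 to 144 in Ex3abERKO, where 1 was higher and 4 lower. The sums were 256 to 328 without ERα alone (2 higher, 3 lower) and 243 to 294 without ERβ alone (1 higher, 1 lower). Of 7 endothelial markers 5 were lower in Ex3aERKO, where the sums were 9.64 to 12.8 against 13.7 to 21.2 in control, and 4 were lower and 1 higher in Ex3abERKO, and of 5 adipose markers 3 were lower in Ex3aERKO, at 0.850 to 1.40 against 2.22 to 8.26. The part of these cell types in the Wnt differences was not tested.

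Rnf43, the ubiquitin ligase that removes Frizzled receptors and is itself a Wnt target in the gut, stood at -0.67, -0.06, -0.04, -0.51 (control) and 0.13, 0.62, -0.08, -0.96 (Ex3aERKO). Rnf43 read -0.03, -0.80, -0.29, 0.40 (Ex3bERKO) and 0.59, 1.00, 0.67, 0.63 (Ex3abERKO). It rose by 1.04 ± 0.31 (2.06-fold at an adjusted p = 0.0251) in Ex3abERKO with no overlap, lost without control 1 or 4, or Ex3abERKO 2 (adjusted p from 0.0613 to 0.0742) and without the 3 arrays that stood apart (adjusted p = 0.108). Its second probe, well above background on 13 arrays, differed by 1.01 (adjusted p = 0.0898). Rspo3, an R-spondin well above background on 14 arrays, passed in no comparison and differed by 1.36 ± 0.53 (95% interval 0.24 to 2.48, adjusted p = 0.0786) in Ex3abERKO. The second probe of Rspo3, well above background on 10 arrays, differed there by 0.08 (adjusted p = 0.95).

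In the destruction complex, Gsk3b, a kinase that marks β-catenin for degradation, stood at -2.08, -1.76, -2.23, -2.11 (control) and -1.79, -1.80, -1.76, -2.07 (Ex3aERKO). Gsk3b read -1.95, -2.05, -1.99, -2.12 (Ex3bERKO) and -2.48, -2.38, -2.89, -2.48 (Ex3abERKO). It fell by 0.51 ± 0.15 (1.43-fold at an adjusted p = 0.0225) against control and differed from Ex3aERKO by -0.70 ± 0.15 (1.63-fold at an adjusted p = 0.0112) and from Ex3bERKO by -0.53 ± 0.15 (1.44-fold at an adjusted p = 0.0252), with no overlap in any of these. The first call was lost without control 2 (adjusted p = 0.0735) and the last without Ex3bERKO 1 or 3 (adjusted p from 0.0622 to 0.0662) and with slide as a fixed block (adjusted p = 0.0777). None passed without the 3 arrays that stood apart (adjusted p = 0.0595, 0.0551 and 0.0566) or by the second probe, which differed by -0.11, -0.51 and -0.06. Axin1 and Apc, scaffolds of the complex, passed in none. Axin2, a scaffold widely used as a readout of β-catenin activity, differed from control by 0.02 ± 0.22 (95% interval -0.46 to 0.50, adjusted p = 0.980) in Ex3aERKO, -0.16 ± 0.22 (95% interval -0.64 to 0.31, adjusted p = 0.940) in Ex3bERKO and -0.02 ± 0.22 (95% interval -0.50 to 0.45, adjusted p = 0.959) in Ex3abERKO.

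Among the Dishevelled and Naked genes, Nkd2, a Dishevelled-binding protein of the Naked family that damps the signal, was highest in the ovary lacking both ERs. Nkd2 (probe at chr13:70753431-70753490, minus strand) stood at -1.43, -1.66, -1.39, -1.43 (control) and -0.97, -1.42, -0.88, -1.68 (Ex3aERKO). Nkd2 read -2.02, -1.54, -1.65, -1.79 (Ex3bERKO) and -0.37, -0.29, -0.22, -0.46 (Ex3abERKO). All Ex3abERKO arrays were above all 12 others. It rose by 1.14 ± 0.18 (2.21-fold at an adjusted p = 0.000529) against control and exceeded Ex3aERKO by 0.90 ± 0.18 (1.87-fold at an adjusted p = 0.00763) and Ex3bERKO by 1.41 ± 0.18 (2.67-fold at an adjusted p = 0.000332), and its second probe differed by 1.25, 0.75 and 1.57, the middle value not passing (adjusted p = 0.108).

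The single knockouts differed in Nkd2 by 0.24 ± 0.18 (95% interval -0.14 to 0.62, adjusted p = 0.531) in Ex3aERKO and -0.27 ± 0.18 (95% interval -0.65 to 0.11, adjusted p = 0.728) in Ex3bERKO, and the interaction was 1.18 ± 0.25 (adjusted p = 0.0193). The interaction was lost with slide as a fixed block (1.07, adjusted p = 0.0658), by the second probe (1.07, adjusted p = 0.161) and without the 3 arrays that stood apart (adjusted p = 0.133). Nkd1, its relative and a β-catenin target, ranged from 0.94 to 1.85 in control and from 1.96 to 2.52 in Ex3abERKO without overlap and differed by 0.78 ± 0.27 (95% interval 0.20 to 1.35, adjusted p = 0.0501), which missed the threshold, and passed with slide as a fixed block (adjusted p = 0.0348).

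**Figure D4:**
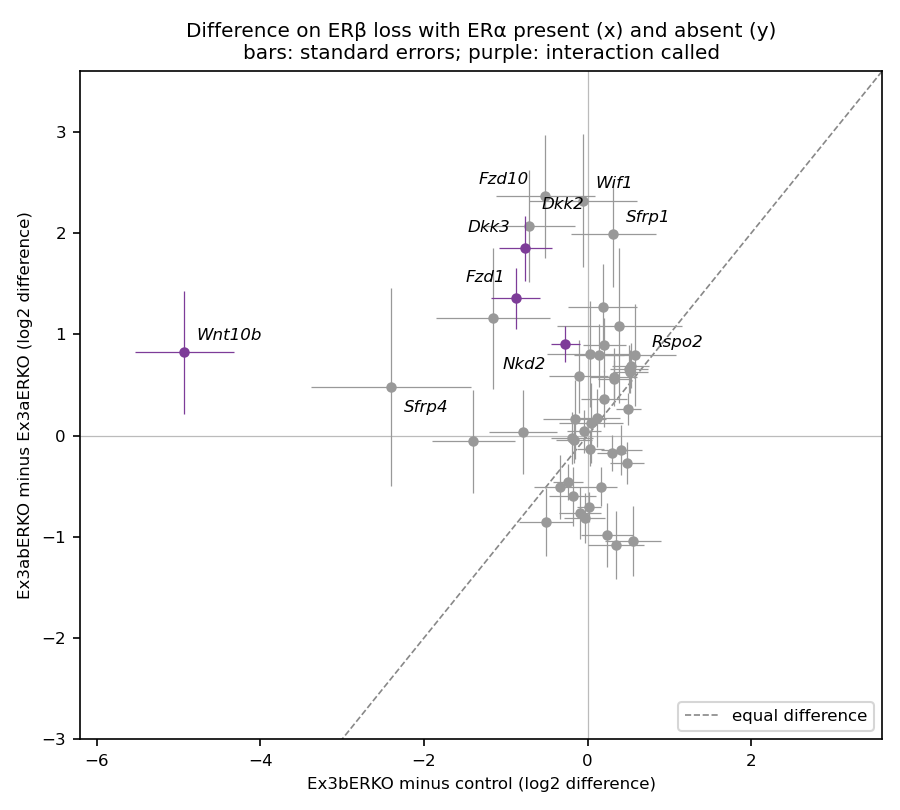
Log2 difference on ERβ loss with ERα present (horizontal axis, Ex3bERKO minus control) and with ERα absent (vertical axis, Ex3abERKO minus Ex3aERKO) for the 47 genes, with standard errors as bars; the dashed line marks equal differences. The 4 purple genes, Wnt10b, Dkk3, Fzd1 and Nkd2, had a called interaction and lie above the line, Wnt10b at -4.93 on the horizontal axis.

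Dvl1, which relays the signal from Frizzled, stood at 1.02, 1.08, 1.24, 0.92 (control) and 0.67, 0.73, 0.81, 1.25 (Ex3aERKO). Dvl1 read 0.71, 0.67, 0.71, 1.22 (Ex3bERKO) and 0.18, 0.40, 0.77, 0.26 (Ex3abERKO). It fell by 0.66 ± 0.18 (1.58-fold at an adjusted p = 0.0172) in Ex3abERKO with no overlap, lost without control 3 (adjusted p = 0.0576) and without the 3 arrays that stood apart (adjusted p = 0.0660), and its second probe fell by 1.32 (adjusted p = 0.00349), and by that probe Ex3abERKO was also below both single knockouts (adjusted p = 0.0132 and 0.0165). Dvl2 and Dvl3, its relatives, passed in no comparison.

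Of the 4 TCF/LEF factors, which place β-catenin on DNA, only Tcf7l2 was called in any of the 7 comparisons. Tcf7l2 stood at 0.71, 0.85, 0.84, 1.07 (control) and 0.91, 0.82, 1.09, 0.72 (Ex3aERKO). Tcf7l2 read 1.24, 0.84, 1.39, 1.28 (Ex3bERKO) and 1.25, 1.23, 2.05, 1.25 (Ex3abERKO). Its rise of 0.57 ± 0.19 (1.49-fold at an adjusted p = 0.0447) in Ex3abERKO rested on 1 of 4 probes, since the 3 others differed by -0.16, -0.03 and -0.28 and did not pass, and the call was lost without control 1, 2 or 3, Ex3aERKO 1, 2 or 3, Ex3bERKO 1, 3 or 4, or Ex3abERKO 3 (adjusted p from 0.0518 to 0.112) and with slide as a fixed block (adjusted p = 0.0756). Lef1, Tcf7 and Tcf7l1 passed in none. Lef1 differed by 0.89 ± 0.42 (95% interval -0.01 to 1.78, adjusted p = 0.151) in Ex3abERKO, where the arrays ranged from -1.54 to 0.29. Over the 22 genes called in none of the comparisons, pairwise differences ran from -2.40 to 1.36. A missed threshold does not show that these genes did not differ.

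A wider list of 81 further Wnt pathway genes, of which 78 were tested, gave 4 higher and 4 lower in Ex3aERKO (10.3% called, 8.02% of all features), 0 and 3 in Ex3bERKO (3.85%, 1.05%) and 9 and 7 in Ex3abERKO (20.5%, 22.3%). The 10 genes called in the most pairwise comparisons are named from it, Rspo1 among them, with Wnt4 and Foxl2 added as ovarian references. Tle2, a Groucho co-repressor that silences TCF targets, stood at 3.70, 3.11, 3.71, 3.23 (control) and 1.48, 1.46, 2.13, 2.14 (Ex3aERKO). Tle2 read 2.18, 2.32, 2.03, 2.78 (Ex3bERKO) and 1.23, 1.00, 1.38, 0.80 (Ex3abERKO). All knockout arrays were below all control arrays. Tle2 fell by 1.64 ± 0.23 (3.11-fold at an adjusted p = 0.000741) in Ex3aERKO, 1.11 ± 0.23 (2.16-fold at an adjusted p = 0.0321) in Ex3bERKO and 2.34 ± 0.23 (5.06-fold at an adjusted p = 2.74e-05) in Ex3abERKO, where it also differed from Ex3bERKO by -1.22 ± 0.23 (2.34-fold at an adjusted p = 0.00300). The Ex3bERKO call was lost without control 1, 3 or 4, or Ex3bERKO 1, 2 or 3 (adjusted p from 0.0657 to 0.117) and with slide as a fixed block (adjusted p = 0.0974).

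Frat1 and Frat2, which bind Gsk3 and favour β-catenin, fell in all 3 knockouts as well. Frat1 stood at 0.07, -0.45, 0.41, -0.03 (control) and -1.22, -1.60, -1.47, -1.20 (Ex3aERKO). Frat1 read -1.32, -1.80, -1.11, -1.10 (Ex3bERKO) and -1.62, -1.93, -2.19, -1.62 (Ex3abERKO). Frat2 stood at 0.66, 0.13, 0.94, 0.82 (control) and -0.75, -1.02, -1.02, -0.51 (Ex3aERKO). Frat2 read -0.63, -1.05, -0.25, -0.48 (Ex3bERKO) and -1.07, -1.29, -1.41, -1.23 (Ex3abERKO). In both genes every knockout array was below every control array. In Ex3aERKO, Ex3bERKO and Ex3abERKO, Frat1 differed from control by -1.37 ± 0.21 (2.59-fold at an adjusted p = 0.00159), -1.33 ± 0.21 (2.52-fold at an adjusted p = 0.00676) and -1.84 ± 0.21 (3.58-fold at an adjusted p = 8.88e-05). Frat2 did so by -1.46 ± 0.21 (2.75-fold at an adjusted p = 0.000800), -1.24 ± 0.21 (2.36-fold at an adjusted p = 0.00887) and -1.88 ± 0.21 (3.69-fold at an adjusted p = 6.46e-05). Without the 3 arrays that stood apart the Ex3bERKO calls of Frat1 and Frat2 were lost (adjusted p = 0.0654 and 0.0886). In Frat2, Ex3abERKO also differed from Ex3bERKO by -0.65 ± 0.21 (1.56-fold at an adjusted p = 0.0457), a call lost when any of 13 of the 16 arrays was left out (all but control 2, Ex3aERKO 4 and Ex3bERKO 2) and with slide as a fixed block (adjusted p = 0.0532).

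Rspo1, the R-spondin that commits the fetal gonad to an ovary, stood at 2.26, 1.91, 2.18, 2.19 (control) and 3.34, 3.69, 3.66, 2.28 (Ex3aERKO). Rspo1 read 2.53, 2.27, 1.87, 2.09 (Ex3bERKO) and 4.05, 4.49, 4.16, 3.86 (Ex3abERKO). It rose by 2.00 ± 0.27 (4.00-fold at an adjusted p = 0.000219) in Ex3abERKO, all 4 arrays above all control arrays, and by 1.11 ± 0.27 (2.15-fold at an adjusted p = 0.0206) in Ex3aERKO, and differed by 0.05 ± 0.27 (adjusted p = 0.993) in Ex3bERKO. The Ex3aERKO call was lost without control 2 or 3, or Ex3aERKO 1, 2 or 3 (adjusted p from 0.0505 to 0.0753) and without the 3 arrays that stood apart (adjusted p = 0.149). As with Sfrp1, Ex3aERKO 4 was the lowest of its group in Rspo1. Wnt4, the ovarian ligand upstream of granulosa identity, stood at 1.98, 2.11, 2.29, 2.17 (control) and 1.48, 1.59, 1.61, 0.00 (Ex3aERKO). Wnt4 read 0.85, 1.59, 0.48, 0.63 (Ex3bERKO) and 2.29, 1.45, 1.23, 1.67 (Ex3abERKO). It differed by -0.97 ± 0.35 (95% interval -1.71 to -0.22, adjusted p = 0.112), -1.25 ± 0.35 (95% interval -1.99 to -0.50, adjusted p = 0.127) and -0.48 ± 0.35 (95% interval -1.22 to 0.27, adjusted p = 0.377) in Ex3aERKO, Ex3bERKO and Ex3abERKO and did not pass, while Foxl2, the granulosa cell transcription factor, differed by -0.04, -0.10 and -0.22 (adjusted p = 0.944, 0.951 and 0.345).

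Myc, a growth gene and β-catenin target, stood at 1.28, 1.38, 1.44, 1.53 (control) and 0.22, 0.22, 0.18, -0.22 (Ex3aERKO). Myc read 1.55, 0.65, 1.31, 1.13 (Ex3bERKO) and 0.37, 0.61, 0.84, 0.62 (Ex3abERKO). It fell by 1.31 ± 0.19 (2.48-fold at an adjusted p = 0.000790) in Ex3aERKO and 0.80 ± 0.19 (1.74-fold at an adjusted p = 0.00688) in Ex3abERKO without overlap with control and differed by -0.24 ± 0.19 (adjusted p = 0.797) in Ex3bERKO. Without the 3 arrays that stood apart the Ex3abERKO call was lost (adjusted p = 0.0584). Msx2, a homeobox gene of the BMP and Wnt pathways, stood at -6.48, -6.42, -5.80, -6.78 (control) and -4.01, -3.94, -3.39, -4.62 (Ex3aERKO). Msx2 read -5.75, -6.13, -5.41, -6.05 (Ex3bERKO) and -5.17, -4.70, -3.96, -4.06 (Ex3abERKO). It rose by 2.38 ± 0.31 (5.21-fold at an adjusted p = 0.000501) in Ex3aERKO and 1.90 ± 0.31 (3.73-fold at an adjusted p = 0.000772) in Ex3abERKO, with 3 of 4 control arrays well above background, but with the normexp correction these differences were 0.15 and -0.02, so that the second changed sign.

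Sostdc1, a secreted antagonist of BMP and Wnt, stood at -7.39, -7.90, -6.48, -8.55 (control) and -8.81, -6.68, -7.85, -6.63 (Ex3aERKO). Sostdc1 read -5.52, -6.44, -6.74, -7.63 (Ex3bERKO) and -2.62, -2.63, -4.99, -2.27 (Ex3abERKO), with 1 control, 2 Ex3aERKO, 3 Ex3bERKO and 4 Ex3abERKO arrays well above background. Its difference was 4.46 ± 0.66 (adjusted p = 0.000410) in Ex3abERKO, set against control signals well above background on only 1 of 4 arrays, so that no fold is given. All 4 Ex3abERKO arrays were above all 12 others, and the normexp correction lowered the difference to 1.02 (adjusted p = 0.303). Gsk3a, the second Gsk3 kinase gene, fell by 0.57 ± 0.13 (1.49-fold at an adjusted p = 0.00730) in Ex3abERKO, where its 4 arrays ranged from -3.23 to -2.96 against -2.66 to -2.42 in control, with the normexp correction not passing (adjusted p = 0.0642). Its differences from Ex3aERKO and Ex3bERKO, -0.49 ± 0.13 (1.40-fold at an adjusted p = 0.0401) and -0.45 ± 0.13 (1.37-fold at an adjusted p = 0.0342), were lost when any of 12 and 4 arrays, respectively, was left out, the latter being Ex3bERKO 3 or 4 and Ex3abERKO 1 or 2, and both with slide as a fixed block (adjusted p = 0.0661 and 0.122).

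Igfbp4, an IGF-binding protein reported to hold back Wnt receptors, rose by 1.21 ± 0.37 (2.32-fold at an adjusted p = 0.0285) in Ex3abERKO, whose 4 arrays from 0.31 to 2.38 overlapped control at 0.31 to 0.54, a call lost without control 1, 2 or 3, or Ex3abERKO 1, 2 or 4 (adjusted p from 0.0531 to 0.0861) and with slide as a fixed block (adjusted p = 0.0754). Tnfrsf19, a TNF receptor family member and Wnt target also named Troy, stood at 1.34, 1.12, 1.26, 1.72 (control) and 1.07, 0.76, 0.98, -0.24 (Ex3aERKO). Tnfrsf19 read 0.78, 0.95, 0.29, 0.41 (Ex3bERKO) and 2.74, 1.83, 1.81, 1.47 (Ex3abERKO). Ex3abERKO exceeded Ex3aERKO by 1.32 ± 0.31 (2.50-fold at an adjusted p = 0.0174) and Ex3bERKO by 1.36 ± 0.31 (2.56-fold at an adjusted p = 0.00875), and the interaction was 2.08 ± 0.44 (adjusted p = 0.0178), which did not pass without the 3 arrays that stood apart (adjusted p = 0.0929), nor did the excess over Ex3aERKO (adjusted p = 0.0684).

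**Figure D5:**
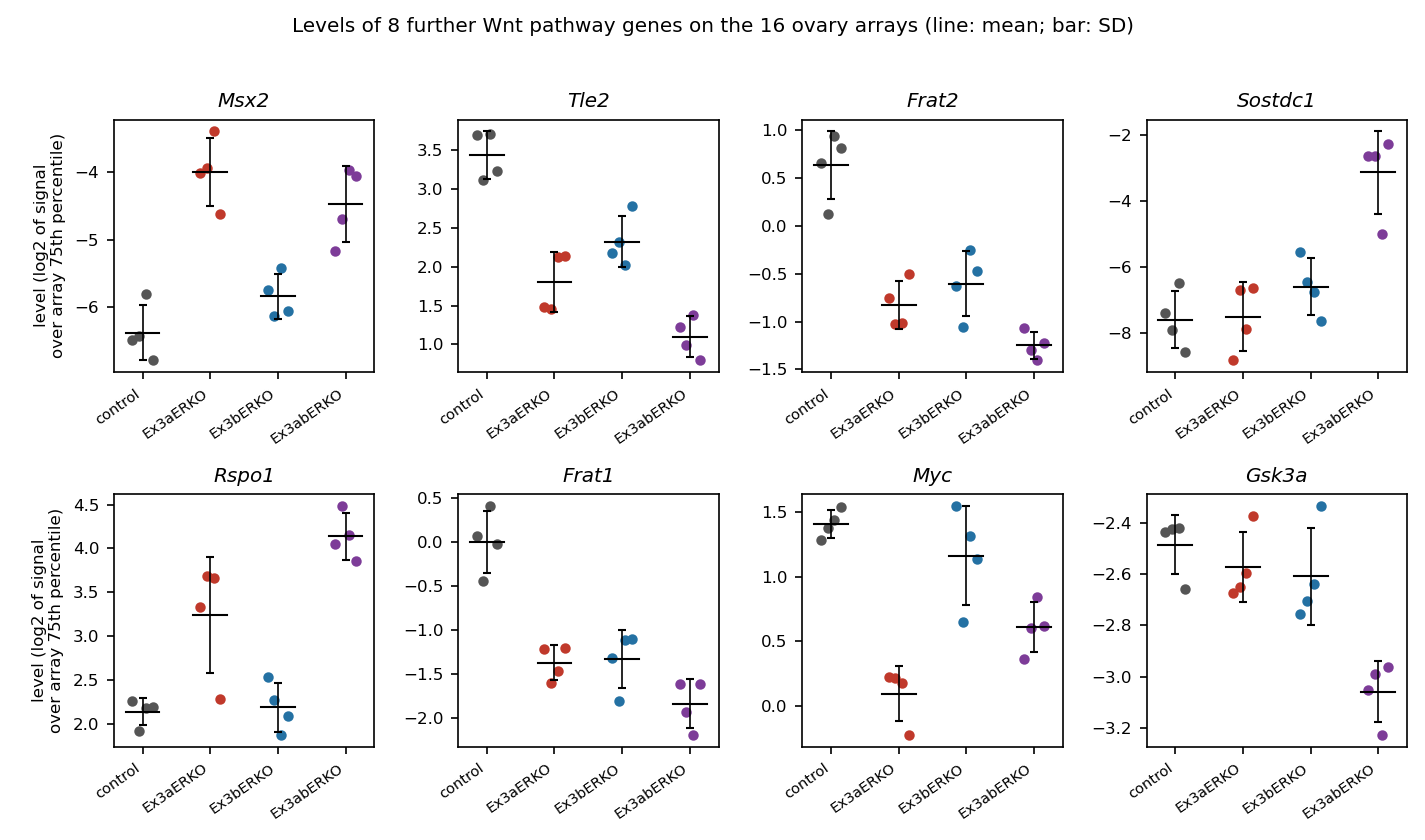
Levels of 8 further Wnt pathway genes, each point 1 array (log2 of signal over the array's 75th percentile; vertical axes differ between genes), by group, with the group mean as a line and the SD as a bar, n = 4. Tle2, Frat1 and Frat2 lie below control on all 12 knockout arrays, and Sostdc1 is highest in Ex3abERKO, at -4.99 to -2.27.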

How the data were processed

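Total RNA of 16 whole-ovary samples, 4 per group, was labelled with Cy3. The deposited values are spot intensity (gProcessedSignal), made with Agilent Feature Extraction 9.5 per the submitters' processing notes with spatial and multiplicative detrending and surrogate values for weak spots switched on and background correction off per the file headers; the authors' series table holds the same intensity values for all 41174 probes within a relative tolerance of 0.0001, on a linear, uncentred scale, and its columns have medians of 149 to 253. Each array was divided by its 75th percentile over 43379 non-control spots, floored at -8.88 and taken to log2; outlier spots (54 to 106 per array) were dropped, saturated ones (0 to 7) kept. Probes well above background on at least 4 of 16 arrays were kept, and the brightest per gene gave 24442 features. Probe names came from transcript accessions in a RefSeq table of GRCm38.p6 (22951 probes), from current (6659) or older (3109) file symbols, and 8455 had no symbol. Probe positions, 1-based, come from the array design (mm7); exons and untranslated regions are not given because no annotation of that build was used here.

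limma 3.58.1 in R 4.3.3 (lmFit and eBayes) fitted all 16 arrays with 1 mean per group, no covariate and 12 residual degrees of freedom; p-values were two-sided. The number of arrays limits the precision. The 16 arrays lay on 4 slides. Replicate numbers did not pair samples. All 47 genes are accounted for, with values on every array for those called in at least 1 of 7 comparisons; of the wider list, the 10 called in the most pairwise comparisons, ties by largest difference, are named, plus the comparators Wnt4 and Foxl2 (Rspo1, also a comparator, is among the 10). The genes, lists and motifs were chosen with earlier results of these data known. Alternatives were other scalings, the normexp background, other filters, slide or replicate as a block, array weights, another variance model, only the groups compared, other probes, and arrays left out. For the genes named from the wider list the alternatives were added after the data were seen.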

Additional observations from a re-analysis of the deposited data

Results flagged for a closer look

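Of the 188 sets of 4 arrays (47 genes in 4 groups), 18 held 1 array farther from the rest than Dixon's 95% critical value allows, where chance gives about 1 in 20. Ex3aERKO 4 was that array for 6 genes and Ex3abERKO 3 for 4. All values are log2 levels relative to the array's 75th percentile. On Ex3aERKO 3, Fzd8 was -4.10 (nearest array -3.21), Ror2 was -3.04 (nearest array -2.51). On Ex3aERKO 4, Fzd4 was 1.15 (nearest array 0.27), Fzd7 was -1.13 (nearest array -0.31), Lrp6 was -2.77 (nearest array -2.46), Sfrp1 was -0.48 (nearest array 1.67), Dkk3 was -2.70 (nearest array -1.36), Gsk3b was -2.07 (nearest array -1.80). On Ex3abERKO 2, Fzd9 was -2.48 (nearest array -1.77). On Ex3abERKO 3, Axin1 was -1.75 (nearest array -0.57), Tcf7l2 was 2.05 (nearest array 1.25), Apc was 0.28 (nearest array -0.80), Dvl2 was -2.00 (nearest array -1.25). On Ex3abERKO 4, Lef1 was 0.29 (nearest array -1.41). On Ex3bERKO 3, Fzd8 was -4.13 (nearest array -3.56), Fzd10 was -5.09 (nearest array -3.84). On Ex3bERKO 4, Dvl1 was 1.22 (nearest array 0.71). On control 2, Nkd2 was -1.66 (nearest array -1.43).

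For 4 genes the effect of ERβ loss differed with ERα by the interaction test in limma: it was 5.76 for Wnt10b (adjusted p = 0.00262), 2.61 for Dkk3 (adjusted p = 0.00694), 2.24 for Fzd1 (adjusted p = 0.0117) and 1.18 for Nkd2 (adjusted p = 0.0193), all on the log2 scale with 4 arrays per group. For Wnt10b, adding the single losses gives -8.90, at the floor of -8.88, so that a fall beyond it could not have been read. Without the 3 arrays that stood apart, the interactions of Dkk3, Fzd1 and Nkd2 did not pass. That of Nkd2 also did not pass with slide as a fixed block or by its second probe.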

How the results depend on the processing

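Of the 50 calls, the number kept was 50 with the series table or slide as a random block, 49 with array weights or a trended robust variance, 48 with quantile normalization or no filter on dim probes, 46 with the replicate block, 45 with median scaling, 41 with slide as a fixed block, 32 with only the groups compared, 26 with the normexp background and 25 without control 4, Ex3aERKO 2 and Ex3abERKO 2; requiring detection on all 16 arrays left 49 testable and kept 49. The normexp background moved the median of all features by up to 0.36, and of the called features 27.6% instead of 37.7% were higher in Ex3bERKO and 61.7% instead of 50.9% positive in the interaction. Weak signals limit Wnt16, Wif1 and Rspo3. A second probe could read 18 of the 50 calls, of which 6 were kept, 9 were lost and 3 changed sign. The further probes, 2 and 3 in order, read 1 call each, and each gave the opposite sign. The causes of lost calls were not tested.

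Counts are given for the Wnt set and then all features. With normexp they were 3 and 954 in Ex3aERKO against control, 8 and 3145 in Ex3abERKO, 3 and 754 for Ex3abERKO against Ex3aERKO, and 6 and 1955 against Ex3bERKO; all features alone gave 152 in Ex3bERKO, 231 between the single knockouts and 342 for the interaction. With array weights they were 11 and 5312 in Ex3aERKO, 2 and 832 in Ex3bERKO, 6 and 1568 between the single knockouts and 7 and 1744 for the interaction, and 8261 features in Ex3abERKO. Without the 3 arrays they were 2 and 562 in Ex3aERKO, 9 and 3235 in Ex3abERKO, 3 and 853 for Ex3abERKO against Ex3aERKO, 1 and 239 between the single knockouts and 1 and 253 for the interaction, with 63 features in Ex3bERKO and 2459 for Ex3abERKO against Ex3bERKO. With only the groups compared they were 1 and 617 for Ex3abERKO against Ex3aERKO and 0 and 120 between the single knockouts, with 86 features in Ex3bERKO and 2465 for Ex3abERKO against Ex3bERKO, which slide as a fixed block put at 2155.

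Among differences that passed as reported or under the alternative, those that changed sign in Ex3abERKO against control were -0.013 for Wnt9a and -0.42 for Fzd7 by the second probe, -0.16, -0.030 and -0.28 for Tcf7l2 by the other probes, and -0.019 for Msx2 with normexp. Against Ex3bERKO, Tcf7l2 stood at -0.74 by another probe and Fzd5 at 0.53 with slide as a fixed block. Sign changes of differences that passed under neither are not listed.

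Leaving out 1 array gave, for the set and all features, 3 to 9 and 1139 to 2628 in Ex3aERKO, 1 to 1 and 113 to 370 in Ex3bERKO, 11 to 19 and 3877 to 6322 in Ex3abERKO, 5 to 9 and 1123 to 2284 for Ex3abERKO against Ex3aERKO, 7 to 15 and 2395 to 5054 against Ex3bERKO, 1 to 4 and 285 to 870 between the single knockouts, and 4 to 5 and 517 to 1341 for the interaction. The set's count moved by over 1.5 times without control 4 or Ex3aERKO 3 (3 each in Ex3aERKO), Ex3aERKO 1 or Ex3abERKO 4 (5 each for Ex3abERKO against Ex3aERKO), Ex3bERKO 3 (7 for Ex3abERKO against Ex3bERKO) and Ex3bERKO 1 or 4 (1 each between the single knockouts).

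Replicate numbers did not pair the samples: deviations of same-numbered arrays correlated at a median of -0.07 (-0.29 to 0.43), and those of arrays on the same slide at 0.28 (-0.03 to 0.43). With the replicate block the set gave 5, 1 and 16 calls in Ex3aERKO, Ex3bERKO and Ex3abERKO, 8 and 13 for Ex3abERKO against Ex3aERKO and Ex3bERKO, 3 between the single knockouts and 4 for the interaction.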
